A study of Mus musculus with 45 samples.

Results

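The FGF/ERK genes described here are 3 ligands (Fgf4, Fgf5 and Fgf8), 2 receptors (Fgfr1 and Fgfr2), 2 transcription factors (Etv4 and Etv5) and 3 inhibitors of the pathway (Spry2, Spry4 and Dusp6). They were taken by gene symbol, and all 10 were found among the 33924 genes that each of the 2 expression tables lists. RNA-seq was done on 24 samples of D3 mouse embryonic stem cells (ESCs) of strain 129. The paper describes ESC culture on gelatin without feeder cells and with leukemia inhibitory factor. The cells carry a replacement of the long noncoding RNA gene 5430416N02Rik on chromosome 5. In ΔG cells a GFP and puromycin cassette replaces the gene body, and in ΔPG cells a puromycin cassette replaces the gene body together with the promoter. The 8 groups of 3 samples are heterozygous (het) and homozygous (hom) cells of each line, kept as ESCs (ES) or treated with retinoic acid (RA) at 2 μM for 48 hours. Every group therefore carries at least 1 replaced allele, and no unedited cells are among these RNA-seq samples. The legend for these samples names RA and DMSO, the vehicle, for this time, while the labels call the other samples only ES. That legend does not say whether leukemia inhibitory factor was kept during the treatment. Each genotype of a line appears to be 1 clone in the study's plot of these samples, so clone and genotype cannot be told apart, and the p-values below measure the spread between samples of 1 clone.

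FGF ligands bind receptor tyrosine kinases at the cell surface and activate ERK through RAS, RAF and MEK. ERK in turn raises transcription factors of the ETS family such as Etv4 and Etv5, and inhibitors such as the Sprouty proteins and the phosphatase Dusp6, which dampen the same cascade. ESCs secrete Fgf4, and signaling by Fgf4 is known to prepare them to leave the pluripotent state and, in the early embryo, to favor primitive endoderm, the extraembryonic layer that lines the yolk sac. RA is the active form of vitamin A and starts differentiation of ESCs through nuclear receptors.

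In the authors' genome build (NCBIM37, GENCODE vM1), all 10 genes are protein coding. Fgf4 is at chr7:152047291-152051148 on the plus strand, Fgf5 at chr5:98683203-98706049 on the plus strand and Fgf8 at chr19:45811288-45817405 on the minus strand. Fgf5 is the only member on the chromosome of 5430416N02Rik (chr5:100849861-100858535, minus strand), 2.14 Mb away from it. Fgfr1 is at chr8:26624126-26686186 on the plus strand, and a second gene model of the same name lies within it, so both were counted under 1 name. Fgfr2 is at chr7:137305965-140315033 on the minus strand in this annotation. Etv4 is at chr11:101631056-101646685 on the minus strand, Etv5 at chr16:22381382-22439792 on the minus strand, Spry2 at chr14:106291166-106296036 on the minus strand and Dusp6 at chr10:98725865-98730122 on the plus strand.

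RefSeq (GRCm38.p6) gave promoter sequences for 6 of the 10 members: Fgf4, Fgf5, Fgfr2, Spry2, Etv5 and Dusp6. Among these 6, the 250 bases before the start are printed for the members with the largest differences between RA and ES samples. These are 3 that were lower in RA (Fgf4, Etv5 and Spry2) and 2 that were higher (Dusp6 and Fgfr2). They are Fgf4 at chr7:144861136-144861385 (plus strand), Etv5 at chr16:22439571-22439820 (minus strand, the more upstream of 2 starts), Spry2 at chr14:105896820-105897069 (minus strand), Dusp6 at chr10:99262981-99263230 (plus strand) and Fgfr2 at chr7:130266809-130267058 (minus strand). Each is written 5′ to 3′ on the strand of its gene, and capitals mark matches to the Sp1 box or the CCAAT box, described next.
Fgf4: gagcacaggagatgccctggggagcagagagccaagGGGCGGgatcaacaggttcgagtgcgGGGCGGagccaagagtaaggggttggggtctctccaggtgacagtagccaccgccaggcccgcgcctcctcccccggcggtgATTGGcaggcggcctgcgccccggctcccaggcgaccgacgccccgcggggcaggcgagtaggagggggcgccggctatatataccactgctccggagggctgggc
Etv5: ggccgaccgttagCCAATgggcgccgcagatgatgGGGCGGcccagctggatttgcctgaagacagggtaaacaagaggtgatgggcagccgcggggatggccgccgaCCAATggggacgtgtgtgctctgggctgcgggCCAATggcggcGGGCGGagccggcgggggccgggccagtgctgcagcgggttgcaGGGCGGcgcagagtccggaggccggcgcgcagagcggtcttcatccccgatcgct
Spry2: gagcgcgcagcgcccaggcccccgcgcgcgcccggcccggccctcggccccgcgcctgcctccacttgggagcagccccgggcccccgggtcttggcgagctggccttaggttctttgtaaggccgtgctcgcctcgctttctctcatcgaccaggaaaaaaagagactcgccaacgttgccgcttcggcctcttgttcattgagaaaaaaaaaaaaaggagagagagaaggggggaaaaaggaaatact
Dusp6: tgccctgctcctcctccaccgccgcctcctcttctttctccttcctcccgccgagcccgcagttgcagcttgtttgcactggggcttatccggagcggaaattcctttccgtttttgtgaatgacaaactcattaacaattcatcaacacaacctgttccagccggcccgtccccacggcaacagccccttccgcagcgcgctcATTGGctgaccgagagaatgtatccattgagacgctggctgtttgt
Fgfr2: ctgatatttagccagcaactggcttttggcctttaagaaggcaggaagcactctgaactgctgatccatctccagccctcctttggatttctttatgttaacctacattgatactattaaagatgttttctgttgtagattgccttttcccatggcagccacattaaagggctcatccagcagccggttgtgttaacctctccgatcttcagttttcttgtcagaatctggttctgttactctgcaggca

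Letters were searched on both strands for the ETS core (CCGGAAG), AP-1 (TGANTCA), the cyclic AMP response element (TGACGTCA), the octamer (ATGCAAAT), the nuclear receptor half-site (AGGTCA), the Sp1 box (GGGCGG), the TATA box (TATAAA) and the CCAAT box (CCAAT), the last added after these sequences had been read. Of all 32851 RefSeq promoters, 32.7% hold the Sp1 box in these 250 bases and 33.8% the CCAAT box. The Fgf4 window holds 2 Sp1 boxes and 1 CCAAT box, and the Etv5 window holds 3 of each. The Dusp6 window holds 1 CCAAT box, while none of these letters occurs in the Spry2 and Fgfr2 windows. The ETS core, which 6.91% of all promoters hold, and the half-site, which 14% hold, occur in none of the 5 printed windows, which says only that these letters are not there. The other shares were 6.75% for AP-1, 1.55% for the cyclic AMP response element, 1.6% for the octamer and 12.4% for the TATA box, and none of the 5 windows holds them. G and C make up 71.2% of the Fgf4 and Etv5 windows, 62.4% of the Spry2, 56.4% of the Dusp6 and 44% of the Fgfr2 window, against a median of 52.4% over all promoters.

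Expression is given as rlog values, which are counts normalized and transformed to the log2 scale by the authors, separately in a table of 12 ΔG and a table of 12 ΔPG samples. The values hold no counts, so the depth of each sample is unknown, and rlog pulls low values together, which makes differences of weakly expressed genes smaller. Pearson's r between replicates ran from 0.991 to 0.997. 5430416N02Rik was lower in homozygous than in heterozygous samples in each comparison, with group means of 5.54 and 2.75 in ΔG ES, 5.58 and 2.83 in ΔG RA, 4.60 and 2.30 in ΔPG ES, and 4.16 and 2.35 in ΔPG RA. A gene was called when the adjusted p (limma, Benjamini-Hochberg over all 22048 ΔG or 21979 ΔPG genes that vary) was under 0.1 and the log2 difference was over 0.5 in size.

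The first question was how the pathway genes differ between ES and RA samples. In both heterozygous and homozygous ΔG cells 9 of the 10 members were called, 4 higher and 5 lower in RA. Of all genes, 17.7% were called higher and 11.7% lower in heterozygous ΔG cells, and 17.0% and 12.1% in homozygous ΔG cells. In heterozygous ΔPG cells 3 members were called higher and 5 lower, against 18.0% and 13.6% of all genes. In homozygous ΔPG cells 4 were higher and 5 lower, against 16.5% and 11.3%. These shares include many weakly expressed genes, which were called less often. Among genes with a mean rlog of at least 3, a larger share was called in each of the 4 comparisons. Only Fgf8, and in ΔPG cells Fgf5, lie under that level. The shares of all genes therefore understate how often genes expressed like the other members were called. The 5 lower members (Fgf4, Etv4, Etv5, Spry2 and Spry4) and the 4 higher members (Fgf5, Fgfr1, Fgfr2 and Dusp6) kept their direction in each of the 4 comparisons. For these 9 genes the 3 ES and 3 RA samples did not overlap in any comparison, which also held for 54.5% and 52.6% of all genes in heterozygous and homozygous ΔG cells, and for 56.1% and 52.7% in heterozygous and homozygous ΔPG cells.

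**Figure D1:**
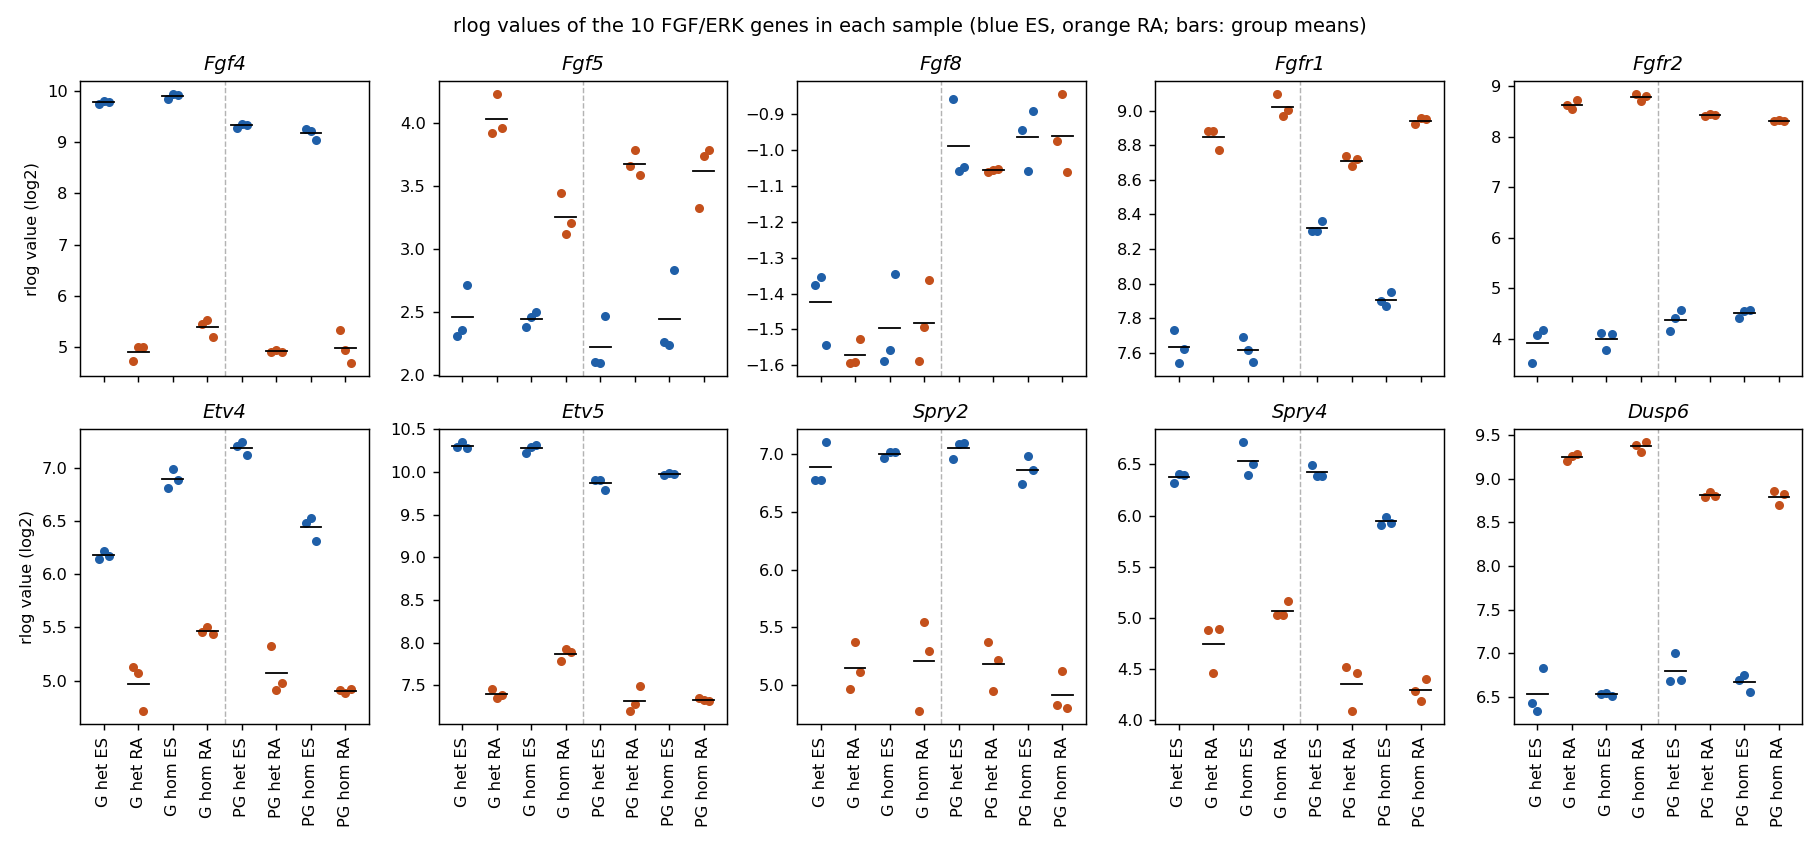
rlog values (log2 scale, y axis) of each member in every sample, by line, genotype and treatment (x axis), with ES samples in blue, RA samples in orange and the mean of each group of 3 as a bar. Fgf4 drops from above 9 in ES to under 6 in RA samples, Fgfr2 and Dusp6 rise in all RA groups, and Fgf8 stays between −1.59 and −0.84.

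Among the ligands, Fgf4 fell the most of the 10 members in each comparison. In ΔG cells its rlog values were 9.74, 9.81 and 9.79 in heterozygous and 9.84, 9.93 and 9.92 in homozygous ES samples, and 4.73, 4.99 and 4.99 in heterozygous and 5.44, 5.52 and 5.19 in homozygous RA samples. In ΔPG cells they were 9.28, 9.36 and 9.34 in heterozygous and 9.25, 9.22 and 9.05 in homozygous ES samples, and 4.91, 4.94 and 4.91 in heterozygous and 5.34, 4.93 and 4.69 in homozygous RA samples. All ES samples were thus more than 3 units above all RA samples of their table. Fgf4 fell by 4.88 (SE 0.08, adjusted p = 4.2e-14) in heterozygous and by 4.51 (SE 0.08, adjusted p = 1.4e-17) in homozygous ΔG cells, and by 4.41 (SE 0.04, adjusted p = 1.23e-09) and 4.19 (SE 0.14, adjusted p = 6.11e-10) in heterozygous and homozygous ΔPG cells. On the rlog scale this is 18.2-fold to 29.4-fold, and placed Fgf4 between rank 13 and rank 36 of all genes by the size of the difference.

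Fgf5, the ligand that marks the primed epiblast, moved the other way from a low level. Its values were 2.31, 2.36 and 2.71 in heterozygous ΔG ES samples and 3.92, 4.23 and 3.96 in heterozygous ΔG RA samples, a rise of 1.57 (SE 0.15, adjusted p = 8.42e-07). In homozygous ΔG cells they were 2.38, 2.46 and 2.50 in ES and 3.45, 3.12 and 3.20 in RA samples, a rise of 0.81 (SE 0.14, adjusted p = 9.42e-05). All RA samples lay above the ES samples, those of homozygous cells by less. In ΔPG cells Fgf5 rose by 1.46 (SE 0.15, adjusted p = 9.28e-05) in heterozygous and by 1.17 (SE 0.21, adjusted p = 0.000627) in homozygous samples. Fgf8, a ligand of the primitive streak and of patterning centers in the embryo, lay between −1.59 and −1.35 in all ΔG samples and between −1.06 and −0.84 in all ΔPG samples. Its ES and RA samples overlapped in each comparison, and its differences ran from −0.15 (heterozygous ΔG cells, SE 0.07, adjusted p = 0.0895) to 0.02, all under the limit. At these low levels a change of Fgf8 was not detectable.

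Both receptors were higher in RA samples, Fgfr2 by much more than Fgfr1. Fgfr2, the receptor that primitive endoderm and trophoblast are known to carry, had values of 3.53, 4.09 and 4.18 in heterozygous and 4.13, 3.78 and 4.10 in homozygous ΔG ES samples, and of 8.63, 8.56 and 8.73 in heterozygous and 8.84, 8.71 and 8.80 in homozygous ΔG RA samples. The ΔPG values were 4.16, 4.42 and 4.57 and then 4.43, 4.55 and 4.57 in heterozygous and homozygous ES samples, and 8.40, 8.44 and 8.43 and then 8.31, 8.33 and 8.32 in the RA samples. Fgfr2 rose by 4.71 (SE 0.14, adjusted p = 9.31e-12) and 4.78 (SE 0.11, adjusted p = 1.27e-16) in heterozygous and homozygous ΔG cells, and by 4.04 (SE 0.10, adjusted p = 6.16e-08) and 3.81 (SE 0.08, adjusted p = 1.83e-11) in ΔPG cells. These differences ranked between 22 and 37 of all genes by size.

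Fgfr1, the receptor that the pluripotent cells themselves express, was already well expressed in ES samples. Its values ran from 7.54 to 7.73 in ΔG ES and from 8.77 to 9.09 in ΔG RA samples, and it rose by 1.21 (SE 0.07, adjusted p = 2.89e-09) in heterozygous and by 1.40 (SE 0.06, adjusted p = 2.01e-12) in homozygous cells. In heterozygous ΔPG cells the values were 8.30, 8.30 and 8.36 in ES and 8.74, 8.68 and 8.72 in RA samples. That difference of 0.39 (SE 0.03, adjusted p = 2.6e-05) had the same sign without overlap, but stayed under the limit of 0.5, and was 0.57 (adjusted p = 5.84e-14) when a trend with GC content was removed. Homozygous ΔPG cells, with 7.90, 7.87 and 7.95 in ES and 8.92, 8.96 and 8.95 in RA samples, had a rise of 1.04 (SE 0.05, adjusted p = 7.89e-09).

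The ETS factors of the pathway were both lower in RA samples. Etv5 was among the most abundant members in ES samples, with 10.29, 10.35 and 10.27 in heterozygous and 10.22, 10.30 and 10.32 in homozygous ΔG cells, and had 7.46, 7.35 and 7.39 and then 7.78, 7.92 and 7.89 in the RA samples of these genotypes. In ΔPG cells it ran from 9.78 to 9.99 in ES and from 7.20 to 7.49 in RA samples. Etv5 fell by 2.91 (SE 0.05, adjusted p = 6.8e-14) and 2.41 (SE 0.05, adjusted p = 9.06e-17) in heterozygous and homozygous ΔG cells, and by 2.54 (SE 0.08, adjusted p = 1.48e-07) and 2.64 (SE 0.04, adjusted p = 2.72e-12) in ΔPG cells. Its close relative Etv4 was less abundant, and in the deposited values its fall varied more between groups. Etv4 fell by 1.21 (SE 0.12, adjusted p = 1.09e-06) and 1.43 (SE 0.10, adjusted p = 6.28e-10) in heterozygous and homozygous ΔG cells, and by 2.12 (SE 0.11, adjusted p = 2.51e-06) and 1.53 (SE 0.10, adjusted p = 1.45e-07) in ΔPG cells. With the GC trend removed, the differences in the same order were −1.46, −1.71, −1.88 and −1.76 for Etv4. For Etv5 they were −2.96, −2.46, −2.43 and −2.67, so Etv4 then varied no more than Etv5.

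The inhibitors did not move as 1 group. Spry2 and Spry4, Sprouty proteins that act upstream in the cascade, were lower in RA samples. Spry2 had 6.78, 6.77 and 7.10 in heterozygous ΔG ES and 4.97, 5.37 and 5.12 in heterozygous ΔG RA samples, and it fell by 1.73 to 1.94 over the 4 comparisons (SE 0.11 to 0.14, largest adjusted p = 4.77e-06). Spry4, on chromosome 18, had 6.32, 6.40 and 6.40 and then 4.88, 4.45 and 4.89 in the same groups, and it fell by 1.47 to 2.07 (SE 0.11 to 0.12, largest adjusted p = 4.51e-06).

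Dusp6, the phosphatase that removes phosphate from ERK itself, was higher in RA samples. In ΔG cells its values were 6.43, 6.34 and 6.83 in heterozygous and 6.54, 6.55 and 6.51 in homozygous ES samples, and 9.20, 9.26 and 9.28 in heterozygous and 9.39, 9.31 and 9.42 in homozygous RA samples. In ΔPG cells they were 6.68, 7.00 and 6.70 and then 6.70, 6.76 and 6.56 in ES samples, and 8.79, 8.85 and 8.80 and then 8.86, 8.70 and 8.82 in RA samples, again heterozygous before homozygous. The lowest RA sample of each table was thus well above its highest ES sample. Dusp6 rose by 2.71 (SE 0.10, adjusted p = 8.97e-11) and 2.84 (SE 0.06, adjusted p = 1.81e-16) in heterozygous and homozygous ΔG cells, and by 2.02 (SE 0.09, adjusted p = 8.48e-07) and 2.12 (SE 0.07, adjusted p = 7.02e-10) in ΔPG cells.

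**Figure D2:**
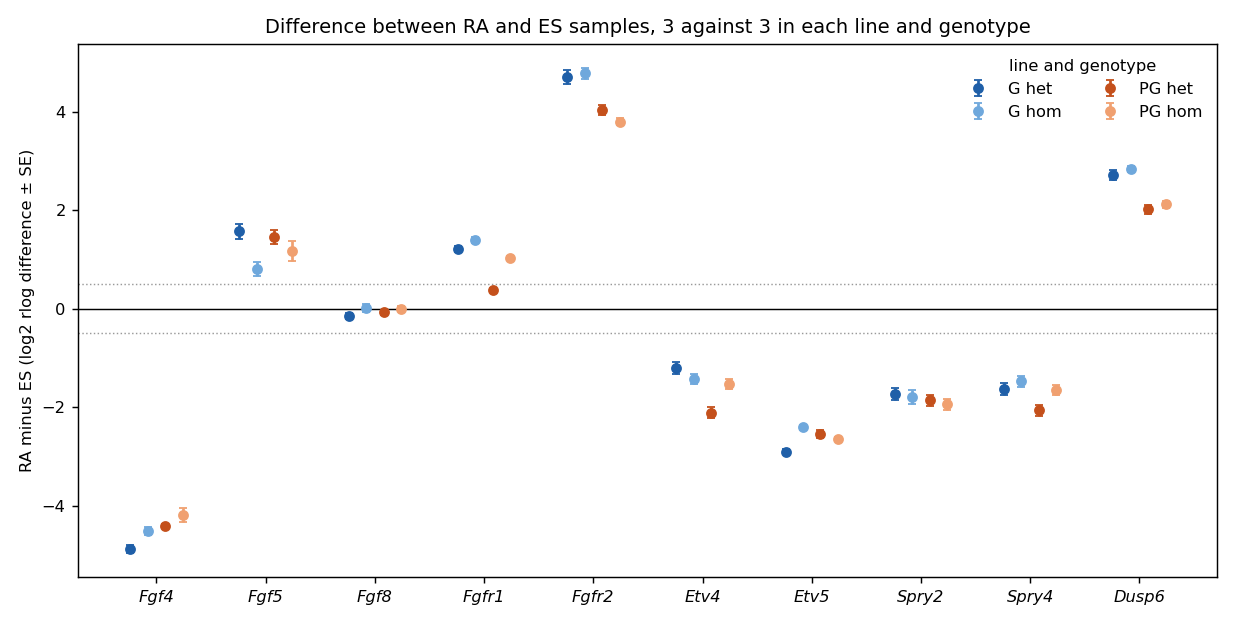
Difference between the means of 3 RA and 3 ES samples (y axis, log2 of the rlog scale, bars are standard errors) for each member (x axis) in the 4 combinations of line and genotype, with dotted lines at the limit of 0.5. Fgf4, Etv4, Etv5, Spry2 and Spry4 lie below zero and Fgf5, Fgfr1, Fgfr2 and Dusp6 above it in all 4 combinations, while Fgf8 lies within 0.15 of zero.

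To set the members against each other, the log2 of the exonic length in kb was subtracted from the rlog value, which gives a level per length. In heterozygous ΔG ES samples Etv5 (8.27 ± 0.04, SD, n = 3) and Fgf4 (8.18 ± 0.03) led, followed by Spry2 (5.82 ± 0.19), Dusp6 (5.05 ± 0.26), Fgfr1 (4.62 ± 0.09), Etv4 (4.54 ± 0.04), Spry4 (4.18 ± 0.05), Fgf5 (1.14 ± 0.22), Fgfr2 (0.97 ± 0.35) and Fgf8 (−1.86 ± 0.10). Samples of neighbors in this order overlapped for Fgfr1 and Etv4 and for Fgf5 and Fgfr2. In heterozygous ΔG RA samples Dusp6 led (7.76 ± 0.04), followed by Fgfr1 (5.83 ± 0.06), Fgfr2 (5.68 ± 0.08), Etv5 (5.36 ± 0.06), Spry2 (4.09 ± 0.20), Etv4 (3.34 ± 0.22), Fgf4 (3.30 ± 0.15), Fgf5 (2.71 ± 0.17), Spry4 (2.54 ± 0.25) and Fgf8 (−2.00 ± 0.04). Here the samples of Fgfr1 and Fgfr2, of Etv4 and Fgf4, and of Fgf5 and Spry4 overlapped. Etv5 and Fgf4 held the first places in all 4 ES groups, with overlapping samples in homozygous ΔG and heterozygous ΔPG cells. In all 4 RA groups Dusp6 came first and Fgfr1 next, and in both ΔPG RA groups Fgfr2 came before Etv5, with overlapping samples in heterozygous cells.

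As a description, each member was compared with 11766 genes that have a mean rlog value of at least 3 in both tables, by the smaller of Pearson's r over the 12 ΔG and over the 12 ΔPG samples. These samples fall into ES and RA samples, so the values mostly rank genes by how closely they follow this split. Myh13 and Mylpf were closest to Fgf4 (smaller r 0.998), Sgk1 (0.999) and Cd97 (0.997) to Etv5, and Plat (0.998) and Prss23 (0.997) to Fgfr2. Npnt (0.996) and Krt18 (0.995), which encodes a keratin of simple epithelia, were closest to Dusp6. Col18a1 (0.983) and Tead2 (0.982) were closest to Fgfr1, and Ptn (0.968) and Zfhx4 (0.963) to Fgf5. For Spry2 Macf1 (0.987) was closest, for Spry4 Atp2a2 and Gm7325 (both 0.987), and for Etv4 Zfp553 (0.977) and Atg16l1 (0.976). For Fgf8, which hardly varied, the closest were Mns1 (0.496) and Ctps (0.473).

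The other genes of the pathway were listed by role, and their counts over the 4 comparisons are set beside the shares of all genes given above. Those shares include the weakly expressed genes, which were called less often, and the lists were not matched to genes of similar level. Of 9 other receptors and co-receptors, 6 to 7 were called in each comparison, all of them higher in RA samples. Gpc3 (differences from 2.10 to 2.96) and Gpc4 (1.63 to 1.89), glypicans that carry heparan sulfate, Fgfrl1 (1.33 to 2.34), a receptor without a kinase domain, Klb (1.14 to 1.96), the co-receptor β-Klotho, Sdc1 (0.83 to 1.82), a syndecan, and Fgfr3 (1.30 to 1.67) were called higher in each comparison. Of 19 other ligands, 17 to 18 had values that vary, 2 were called higher and at most 1 lower. Fgf1 (1.67 to 2.44) and Fgf13 (0.68 to 1.37), an intracellular relative of the ligands, were higher in each comparison.

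Of 22 adaptors and kinases of the RAS-ERK pathway, 5 to 7 were called higher and 1 to 5 lower. The kinases Rps6ka3 (1.65 to 2.29), Braf (0.71 to 1.12) and Mapk3 (0.61 to 1.16), which encodes ERK1, and the exchange factor Sos2 (1.19 to 1.63) were higher, and Map2k1 (−1.02 to −0.69), which encodes MEK1, was lower in each comparison. Of 16 other feedback genes, 15 had values that vary, 7 to 11 were called higher and 1 was called lower. Dusp5 (2.21 to 2.59) and Dusp4 (1.94 to 2.67), nuclear phosphatases of ERK, rose together with Dusp6, as did Spred1 (0.77 to 1.29), a relative of the Sprouty genes, Nf1 (0.63 to 0.98), a RAS GTPase-activating protein, and the ubiquitin ligase Cblb (0.55 to 0.81). The phosphatase Dusp1 (−1.21 to −0.56) fell.

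Of 21 other transcription factors and targets that respond to ERK, 11 to 12 were called higher and 1 to 2 lower, so most of those called moved against Etv4 and Etv5. The ETS factor Ets1 (3.27 to 4.04), the AP-1 genes Fosl2 (3.01 to 3.41), Jun (2.72 to 3.44) and Fosb (1.21 to 1.96), Phlda1 (2.12 to 2.97) and the immediate early gene Egr1 (1.05 to 1.81) were higher in each comparison. Ccnd1 (−2.02 to −1.41), which encodes cyclin D1, was lower. The median difference of this list ran from 0.56 to 0.67, that of the other feedback genes from 0.46 to 0.83, that of the other receptors and co-receptors from 1.30 to 1.68, that of the other ligands from 0.02 to 0.12 and that of adaptors and kinases from 0.01 to 0.19, while the median over all genes stayed between 0.01 and 0.04.

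**Figure D3:**
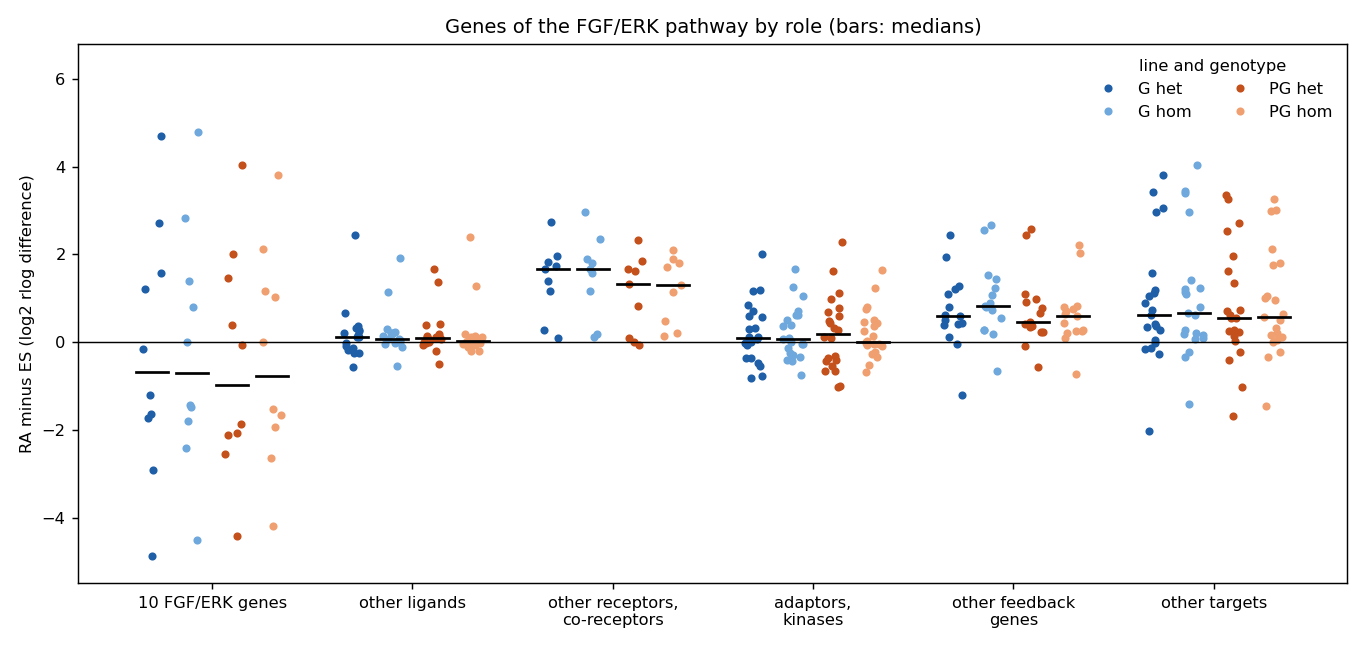
Difference between RA and ES samples (y axis, log2 of the rlog scale) for each gene of the 10 members and of 5 other lists of pathway genes by role (x axis), with 1 color for each line and genotype and bars at the medians. The members spread to both sides of zero, while the medians of other receptors and co-receptors lie between 1.30 and 1.68.

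Marker genes of cell types were counted in the same 4 comparisons. Of 10 ESC markers (Pou5f1, Nanog, Sox2 and others) 8 to 9 were called lower in RA, and the mean rlog over the list was 8.84 to 9.18 in ES and 6.02 to 6.17 in RA samples. All 10 primitive endoderm markers (Gata4, Gata6, Sox17 and others) were called higher in each of the 4 comparisons, with list means of 4.51 to 4.97 in ES and 7.15 to 7.98 in RA samples. Of 10 RA response genes 9 were called higher and 1 lower. Of 7 fibroblast markers 4 to 6 were called higher and 0 to 1 lower (list means of 2.33 to 2.66 in ES and 4.27 to 4.74 in RA). Of 7 trophoblast markers 3 to 4 were called higher and 0 to 1 lower (2.88 to 3.32 and 4.21 to 4.61), and of 6 neural progenitor markers with values 3 were called higher and 1 lower (2.70 to 3.11 and 3.35 to 3.79). Of 6 mesoderm markers 1 to 2 were called lower (1.36 to 1.73 and 1.04 to 1.54). Neurog2 of the neural, Elf5 of the trophoblast, and Mesp1 and Gsc of the mesoderm list were under 1 in every sample. In such bulk samples fewer cells of a type and less RNA per cell cannot be told apart, and the part of these cell types in the differences of the members was not tested.

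The next question was how homozygous and heterozygous cells of the same line and treatment differ. In ΔG ES samples Etv4 alone was called, against 0.984% of all genes. Its values were 6.14, 6.22 and 6.17 in heterozygous and 6.81, 6.99 and 6.89 in homozygous samples, a difference of 0.72 (SE 0.07, adjusted p = 0.00314) with no overlap. No other member had an adjusted p under 0.1, which 5.22% of all genes had. Fgf4 differed by 0.12 (SE 0.03, adjusted p = 0.138), also without overlap.

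In ΔG RA samples Fgf5 alone was called, against 2.14% of all genes. It was 0.78 lower in homozygous cells (log2 difference −0.78, SE 0.15, adjusted p = 0.00163), and the heterozygous samples, from 3.92 to 4.23, lay above the homozygous samples, from 3.12 to 3.45. In all, 5 members had an adjusted p under 0.1, against 11.0% of all genes. The other 4 were higher in homozygous cells by less than the limit, Etv4 by 0.49 (SE 0.12, adjusted p = 0.016), Fgf4 by 0.48 (SE 0.13, adjusted p = 0.0205), Etv5 by 0.47 (SE 0.07, adjusted p = 0.000233) and Fgfr1 by 0.18 (SE 0.06, adjusted p = 0.0588). In the same samples 4 of 10 primitive endoderm markers were called lower in homozygous cells, with list means of 7.55 to 7.62 against 7.95 to 7.98. The part of this difference in the values of the members was not tested.

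In ΔPG ES samples Etv4 alone was called, against 13.2% of all genes, and in the direction opposite to ΔG. Its values were 7.20, 7.24 and 7.12 in heterozygous and 6.48, 6.53 and 6.31 in homozygous samples, a difference of −0.75 (SE 0.07, adjusted p = 0.000124). Spry4 (−0.48, SE 0.06, adjusted p = 0.000691), Fgfr1 (−0.42, SE 0.04, adjusted p = 0.000123), Fgf4 (−0.15, SE 0.05, adjusted p = 0.0722) and Etv5 (0.11, SE 0.04, adjusted p = 0.0605) stayed under the limit. These 5 of 10 members with an adjusted p under 0.1 compare with 36.1% of all genes. The differences of all genes in this comparison followed the GC content of their exons (r = −0.705 across 11904 genes, which are not independent replicates), while r was 0.006, 0.115 and −0.001 in ΔG ES, ΔG RA and ΔPG RA. Exons of Etv4 hold 60.3% G and C. With this trend removed the difference of Etv4 was −0.28 (SE 0.08, adjusted p = 0.00446), under the limit. Only genes with a mean rlog of at least 3 entered this fit, so its adjusted p-values are not comparable with those above. That of Fgfr1 was −0.18, that of Spry4 −0.37 and that of Fgf4 −0.05. Other differences grew but stayed under the limit, Etv5 to 0.26 (limma, adjusted p = 3.07e-08), Spry2 from −0.19 to −0.33 (adjusted p = 0.000752) and Fgfr2 from 0.13 to 0.30. Etv4 in ΔG ES stayed at 0.72.

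In ΔPG RA samples no member was called by limma, against 0.846% of all genes. Fgfr1 was 0.23 higher in homozygous samples (SE 0.04, adjusted p = 0.00628), with no overlap, and was the 1 member with an adjusted p under 0.1, which 4.58% of all genes had. Fgfr2 differed by −0.10 (SE 0.04, adjusted p = 0.237), and Fgf5, which was lower in homozygous ΔG RA samples, differed here by −0.06 (SE 0.16, adjusted p = 0.912). The primitive endoderm markers were lower in homozygous cells here too, with 5 of 10 called lower and list means of 7.15 to 7.23 against 7.70 to 7.72.

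**Figure D4:**
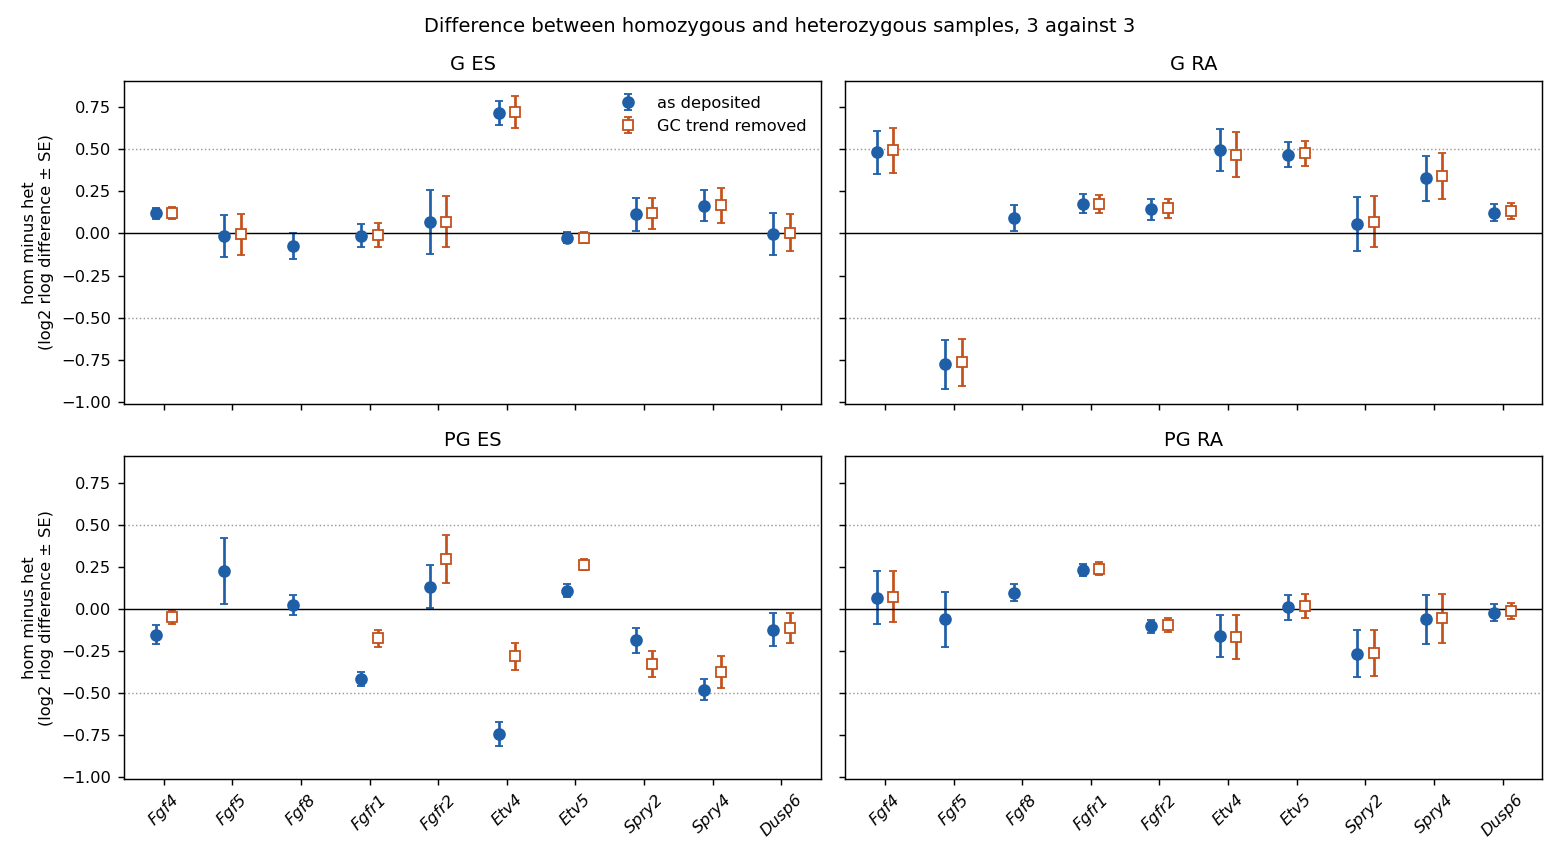
Difference between 3 homozygous and 3 heterozygous samples (y axis, log2 of the rlog scale, bars are standard errors) for each member (x axis) in each line and treatment, from the deposited values (filled circles) and after removal of the trend with GC content (open squares, not available where the mean rlog value is under 3). Etv4 lies at 0.72 in ΔG ES and at −0.75 in ΔPG ES, where the corrected value is −0.28, and Fgf5 lies at −0.78 in ΔG RA.

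An interaction term, fitted to all 12 samples of a table, asked whether the difference between RA and ES depended on genotype. In ΔG cells Fgf5 was called, against 2.38% of all genes. Its rise in RA was 1.57 in heterozygous and 0.81 in homozygous cells (interaction −0.76, SE 0.21, adjusted p = 0.0341). This call rests on single samples: without replicate 1 of heterozygous ES it was −0.69 (adjusted p = 0.101) and without replicate 2 of heterozygous RA −0.67 (adjusted p = 0.11). Etv5 had a smaller fall in homozygous cells, with an interaction of 0.49 (SE 0.08, adjusted p = 0.000122) just under the limit. These 2 members were the ones with an adjusted p under 0.1, against 5.28% of all genes.

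In ΔPG cells Fgfr1 and Etv4 were called, against 13.9% of all genes. Fgfr1 was 0.39 higher in RA than in ES samples of heterozygous and 1.04 higher in those of homozygous cells (interaction 0.65, SE 0.05, adjusted p = 6.37e-07), and the fall of Etv4 was 2.12 in heterozygous and 1.53 in homozygous cells on the log2 scale (interaction 0.58, SE 0.14, adjusted p = 0.00745). Spry4 had an interaction of 0.42 (SE 0.16, adjusted p = 0.0711), and with it 3 members had an adjusted p under 0.1, against 29.1% of all genes. Both called interactions fell under the limit when the GC trend was removed, to 0.41 (adjusted p = 8.46e-06) for Fgfr1 and to 0.12 (adjusted p = 0.621) for Etv4. The interactions of Dusp6 (0.13 in ΔG and 0.10 in ΔPG cells), Spry2 (−0.06 and −0.08) and Fgfr2 (0.07 and −0.23) were not called.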

How the data were processed

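RNA-seq values of 24 samples in 8 groups of 3 were used. The authors mapped stranded, ribosome-depleted libraries with TopHat2 2.1.0 (build NCBI37/mm9), dropped duplicates (Picard), counted with HTSeq 0.6.0 on GENCODE vM1 and used DESeq2 1.14.1 for normalization and the regularized log, as the methods and the submitters' processing notes say. Each line has its own deposited table of these rlog values (log2). Whether the transformation used the groups is not stated, and levels are not tested across tables.

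R 4.3.3 with limma 3.58.1 (lmFit, then eBayes with trend) used all varying genes of a table, with the 6 samples of a comparison or, for interactions, all 12. Calls were tested on simulated data: 183 to 200 of 200 genes changed by 1 were recovered, with 0 to 13 false calls, over the 10 comparisons. The changed genes had a mean rlog of at least 3, and the noise was drawn independently for each gene. No GC trend was simulated, so these counts do not cover errors from such a trend. Python 3.11.15 was used for likeness, promoters and plots.

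Members and lists were chosen with earlier results of these data known. The genes named are the members, other pathway genes called in 1 direction in all 4 RA comparisons (at most 6 per list and direction), 5430416N02Rik, and the 2 genes most like each member, beside example markers. For Spry2 only 1 such gene is reported here. Alternatives were other limits, a mean rlog of at least 3, quantile normalization, no variance trend, 1 fit of all 12 samples, a replicate block, removal of a lowess trend with exonic GC content, and leaving out each sample. Removal of the GC trend also kept only genes with a mean rlog of at least 3, which by itself changes adjusted p-values. RIP-seq, 4C-seq and Capture-C data were not analysed here.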

Additional observations from a re-analysis of the deposited data

Results flagged for a closer look

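In 3 cases the effect of genotype differed between RA and ES samples by the interaction test. Fgf5 had an interaction of −0.76 in ΔG cells, that is, a smaller rise in homozygous cells, and was no longer called without replicate 1 of heterozygous ES or replicate 2 of heterozygous RA. In ΔPG cells the interaction was 0.65 for Fgfr1, which was lower in homozygous ES and higher in homozygous RA samples, and 0.58 for Etv4, which was lower in homozygous ES samples. The genotype differences of Fgfr1 itself, −0.42 in ES and 0.23 in RA samples, were not called. With the GC trend removed neither interaction was called, at 0.41 for Fgfr1 and 0.12 (adjusted p = 0.621, limma) for Etv4.

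For 2 genes the 3 homozygous ES samples all lay on 1 side of the 3 heterozygous ES samples in ΔG and on the other side in ΔPG cells. How many of all genes share this pattern was not counted, so it cannot be called particular to these genes. An adjusted p under 0.1 (limma) was reached by 5.22% of all genes in ΔG ES and by 36.1% in ΔPG ES samples. Etv4 differed by 0.72 in ΔG and by −0.75 in ΔPG cells, and by −0.28 in ΔPG cells once the trend with GC content was removed. Fgf4 differed by 0.12 in ΔG and by −0.15 in ΔPG cells, neither of which was called. With the trend removed Fgf4 differed by only −0.05 in ΔPG cells (limma, adjusted p = 0.372). The difference between the lines was not tested. The tables were normalized separately, and each genotype of a line appears to be 1 clone.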

How the results depend on the processing

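The counts of members called between RA and ES samples stayed within 1.5 times under each alternative. Other counts moved. Homozygous against heterozygous ΔG RA samples gave 1 called member, but 5 with no limit on the difference, 2 after quantile normalization and 1 to 3 when single samples were left out. The ΔPG ES count of 1 became 5 with no limit, 0 with the GC trend removed and 1 to 2 without single samples. The ΔPG RA count of 0 became 1 with no limit. The ΔG interaction count of 1 became 2 with no limit, after quantile normalization and with the GC trend removed, and 0 to 2 without single samples, being 0 without replicate 1 of heterozygous ES or replicate 2 of heterozygous RA, where Fgf5 lost its call. The ΔPG interaction count of 2 became 1 with stricter limits (fold change over 1.5, adjusted p under 0.05) and 0 with the GC trend removed. Of 1470 differences of single members under an alternative, 31 gained and 6 lost a call, no called difference reversed, and 39 uncalled ones changed sign, the largest of which was 0.13 in size.

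Samples with the same replicate number did not deviate together (r from −0.033 to 0.085), so the numbers were not taken to pair them. With a replicate block the counts were 9, 9, 8 and 9 for RA against ES, 1, 1, 1 and 0 for the genotypes and 1 and 2 for the interactions, the same as without it. The deposited values give no depth per sample, which limits what can be said of weakly expressed members, Fgf8 above all.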
